A study of Mus musculus with 2 samples.

Results

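The Runx factors and their shared partner were followed in sorted mouse regulatory T (Treg) cells: the 3 genes Runx1, Runx2 and Runx3, which encode the DNA-binding alpha subunits of core-binding factor, and Cbfb, which encodes its beta subunit. Members were taken by gene name from the array files, with every probe kept, which gave 8 probes for 4 genes among 39348 gene probes for 30069 gene names. The study has 2 libraries, 1 labelled Nr4a-deficient and 1 wild-type, each from Treg cells of mice 5 weeks old that were lysed straight after sorting. The protocol names the mutant mice Nr4a-TKO. Cy3-labelled cRNA of each library was hybridised to 1 single-colour array, and both arrays shared a slide and a scan. The targeted alleles, the driver of any deletion, the tissue, the sort markers and the number of animals are not given in the sources used here. With 1 array a group there is no test between genotypes, and every value below describes these libraries.

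Runx proteins bind DNA through the Runt domain and need Cbfb, which does not bind DNA itself, to bind tightly and to stay stable. They act as activators or repressors, depending on the cofactors they recruit. In T cells, Runx3 silences Cd4 in the CD8 lineage, where Runx proteins also hold down Zbtb7b (ThPOK). In Treg cells the Runx and Cbfb complex binds the Foxp3 gene and helps to keep it active. Runx2 is best known as the master regulator of bone-forming cells, and among blood cells it is prominent in plasmacytoid dendritic cells, which make type I interferon.

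Of the 4 genes, Runx2 passed 2-fold, on the high side in the library labelled Nr4a-deficient, and Runx1, Runx3 and Cbfb lay within 2-fold. At its brightest probe Runx2 was 2.93-fold higher, Runx1 was 1.22-fold higher, Runx3 was 1.21-fold lower and Cbfb had a log2 difference of 0.00055. Among all 18540 genes above background on at least 1 array, 4.7% passed 2-fold on the high side, 4.94% on the low side and 9.63% in either direction. Among the 16298 genes above background on both arrays these shares were 2.64%, 3.06% and 5.71%. A single call among 4 genes describes Runx2 and no trend of the family. All differences were taken as Nr4a-deficient minus wild-type by label, on the log2 scale, after the signal of each array was divided by its 75th percentile (1762 intensity units in the Nr4a-deficient-labelled library, against 2047 in the wild-type library). A gene is represented by its brightest probe, by the mean of both arrays, once probes at background on both arrays are set aside. In sorted bulk cells, a change in the number of cells of a type and a change in RNA per cell cannot be told apart.

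**Figure D1:**
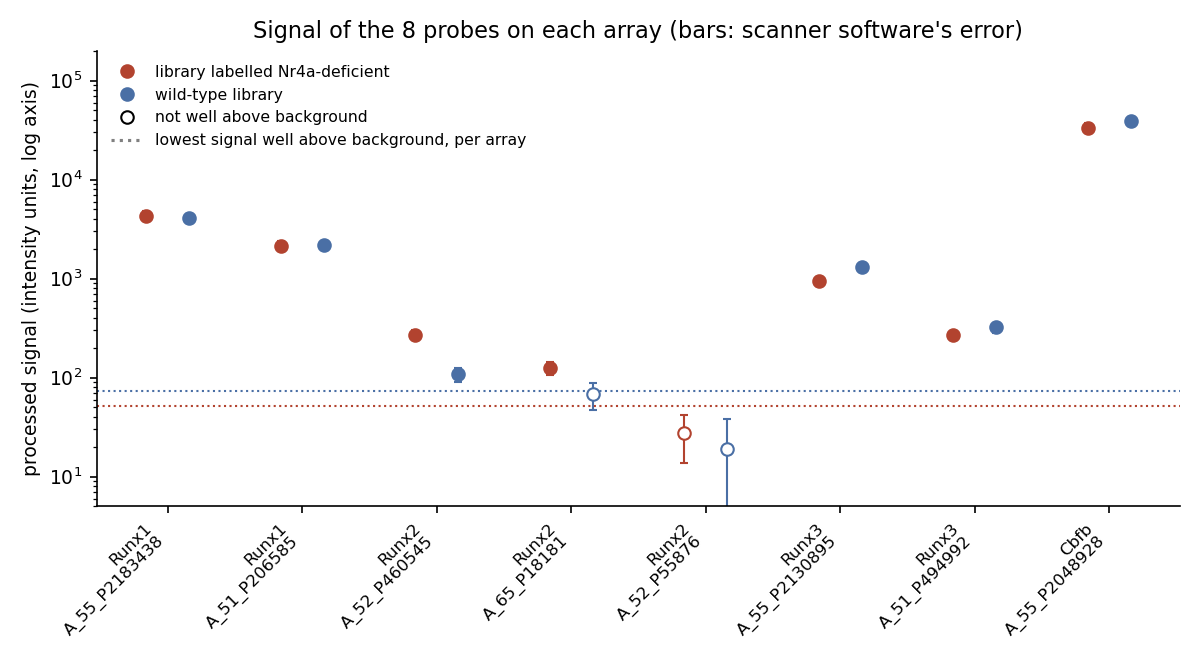
Processed signal (intensity units, log axis) of the 8 member probes on the array labelled Nr4a-deficient (red, left of each pair) and on the wild-type array (blue, right), with the scanner software's error as bars and hollow points where the spot was not well above background; dotted lines mark the lowest signal well above background on each array (51.1 and 73.8). The lower bar of the dimmest wild-type point runs off the axis. The Runx2 probe A_52_P460545 was brighter in the library labelled Nr4a-deficient (272 against 108), and the Runx3 and Cbfb probes were dimmer there before scaling.

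The array facts that touch these values are few. The probes of the targeted genes went against the label for Nr4a1 (log2 difference 0.86) and Nr4a2 (0.98). The Nr4a3 probe was at background on both arrays, so no fold is given. It had 22.3 units in the Nr4a-deficient-labelled library, against 71.6 in the wild-type library. Each direction below thus rests on the label. Whether the probes of the Nr4a genes lie in a deleted stretch is not given in the sources used here. Well above background were 58.7% of probes in the Nr4a-deficient-labelled library, against 55.6% in the wild-type library, and the floor was lower in the first (51.1 against 73.8 intensity units). The 8 spike-in RNAs lay 0.37 ± 0.058 (SD, n = 8) higher in the library labelled Nr4a-deficient than in wild-type once scaled, so on the spike-in scale every difference, and the median of all genes, shifts by -0.37. Of 8 Treg and T cell markers, all were above background on both arrays and 7 lay within 2-fold (Cd3e 0.18, Cd4 0.12, Ikzf2 -0.18, Tnfrsf18 -0.86, which lay at -1.23 on the spike-in scale). Foxp3, the factor that defines Treg cells, had a dim probe, with 74.5 intensity units in the Nr4a-deficient-labelled library, against 85.4 in the wild-type library, and a difference of 0.020. Il2ra was 2.42-fold lower.

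Runx2 was read by 3 probes, which are printed because the one difference past 2-fold rests on them. All letters are as in the array design, 5′ to 3′, on the minus strand of chromosome 17 of build mm9, and no letters are capitalised. No mm9 annotation was used, so the exon under a probe is not given.
A_52_P460545 (chr17:44744925-44744984): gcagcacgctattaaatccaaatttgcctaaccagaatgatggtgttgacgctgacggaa
A_65_P18181 (chr17:44633034-44633093): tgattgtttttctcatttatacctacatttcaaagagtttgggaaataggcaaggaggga
A_52_P55876 (chr17:44951128-44951187): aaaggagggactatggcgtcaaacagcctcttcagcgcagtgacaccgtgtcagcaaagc

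The probe A_52_P460545, which the array design ties to RefSeq transcripts of Runx2, gave 272 ± 29.1 intensity units in the Nr4a-deficient-labelled library, against 108 ± 18.2 in the wild-type library, where the error is the scanner software's estimate for the spot. The errors do not overlap, and both spots were well above background. The log2 difference was 1.55, higher than in 98.8% of those 16298 genes. Repeated probes of like brightness (35 probes within 1 log2 unit) showed a spot-to-spot SD of the difference of 0.23, which covers spot noise only and leaves out animals, sorts and RNA preparations. The wild-type spot of this probe was not located by the spot finder and was read at its expected place, as was the case for 2.26% of the wild-type spots well above background.

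Each of the other Runx2 probes was at background on at least 1 array. A_65_P18181, which the design assigns to an Ensembl transcript, gave 124 ± 18.6 units in the Nr4a-deficient-labelled library, against 68.1 ± 20.6 in the wild-type library, where it was not well above background. Set against the wild-type floor, this probe was at least 1.94-fold higher. A_52_P55876, at position 362 of its transcript, gave 27.8 ± 14.1 units in the Nr4a-deficient-labelled library, against 19.1 ± 19.0 in the wild-type library, below the well-above-background call on both arrays, and no fold is given. The Runx2 difference was thus measured on both arrays by 1 probe, A_52_P460545.

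Runx1, the alpha subunit of blood stem cells and of most developing T cells, was read by 2 probes on the minus strand of chromosome 16 (mm9), and the probe that represents the gene is printed.
A_55_P2183438 (chr16:92605785-92605844): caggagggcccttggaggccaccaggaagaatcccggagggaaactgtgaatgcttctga
This probe gave 4327 ± 433 units in the Nr4a-deficient-labelled library, against 4112 ± 412 in the wild-type library, a log2 difference of 0.29 after scaling. The second probe, A_51_P206585 (chr16:92604413-92604472), gave 2154 ± 216 units in the Nr4a-deficient-labelled library, against 2199 ± 221 in the wild-type library, a difference of 0.19. The errors of the unscaled signals overlap at both probes, and the sign turns with the scale, since on the spike-in scale the differences were -0.082 and -0.18. The spot-to-spot SDs at their brightness were 0.043 and 0.052.

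Runx3, the alpha subunit of CD8 T cells, NK cells and Th1 cells, was read by 2 probes on the plus strand of chromosome 4 (mm9). They are printed because they gave different values.
A_55_P2130895 (chr4:134733846-134733905): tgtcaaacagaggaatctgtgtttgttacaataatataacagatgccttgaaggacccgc
A_51_P494992 (chr4:134731959-134732018): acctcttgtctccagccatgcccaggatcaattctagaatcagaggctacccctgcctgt
The probe that represents the gene, A_55_P2130895, gave 938 ± 94.6 units in the Nr4a-deficient-labelled library, against 1315 ± 133 in the wild-type library, a log2 difference of -0.27. The other probe, A_51_P494992, gave 269 ± 29.6 units in the Nr4a-deficient-labelled library, against 321 ± 36.4 in the wild-type library, a difference of -0.037, smaller than the spot-to-spot SD of 0.17. The spot of A_55_P2130895 was not located by the spot finder in the library labelled Nr4a-deficient, as was the case for 2.34% of its spots well above background. The gap between the Runx3 probes was 0.23, and that between the Runx1 probes 0.10. Across 3025 genes with 2 probes above background on both arrays the median gap was 0.12 and the upper quartile 0.27.

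Cbfb had the smallest difference of the 4 genes. Its single probe, printed as the only measure of the shared partner, lies on the plus strand of chromosome 8 (mm9).
A_55_P2048928 (chr8:107741792-107741851): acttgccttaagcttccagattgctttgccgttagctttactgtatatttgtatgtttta
It gave 33536 ± 3354 units in the Nr4a-deficient-labelled library, against 38940 ± 3894 in the wild-type library. After scaling the difference was 0.00055 with a spot-to-spot SD of 0.055, and 52.3% of the genes above background on both arrays lay lower. The median of these genes was -0.014. On the spike-in scale Cbfb lay at -0.37 and that median at -0.39.

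**Figure D2:**
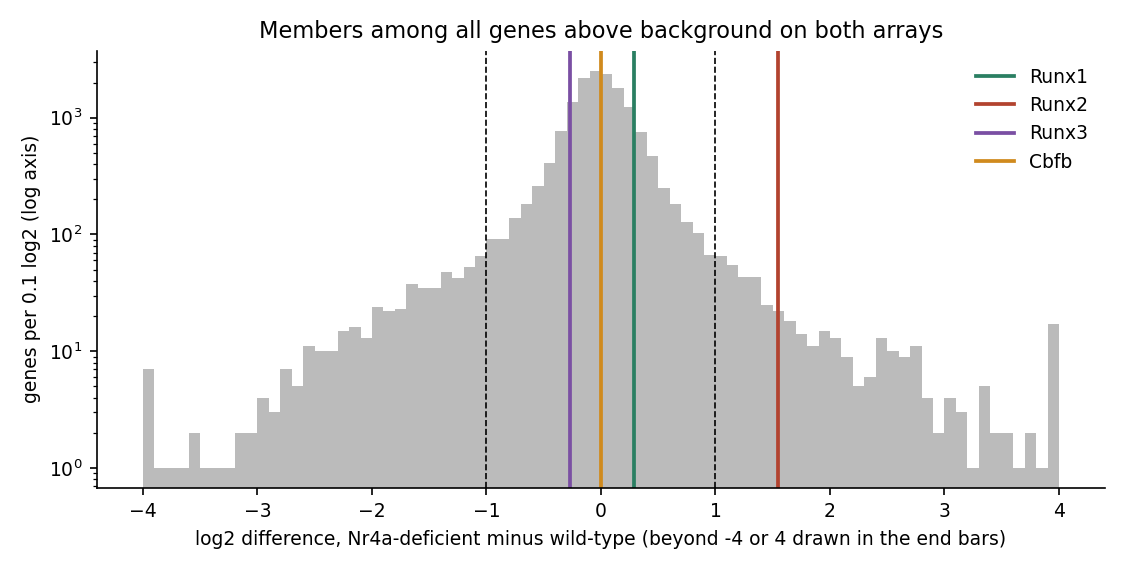
Histogram of the log2 difference (Nr4a-deficient minus wild-type by label) of the 16298 genes above background on both arrays, with genes per bin on a log axis, values past -4 or 4 in the end bars, and the 4 members as coloured lines; dashed lines mark 2-fold. Cbfb, Runx1 and Runx3 stand in the central mass and Runx2, at 1.55, in the upper tail.

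**Figure D3:**
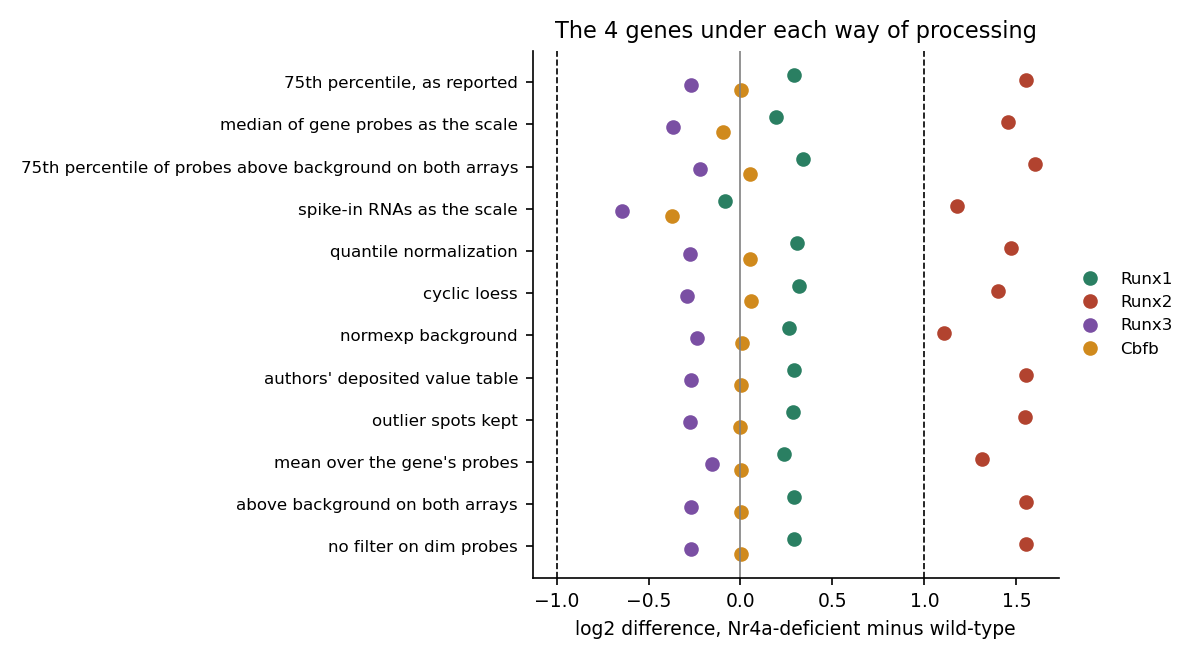
Log2 difference (Nr4a-deficient minus wild-type by label) of each member gene as reported (top row) and under 11 alternatives (rows below); dashed lines mark 2-fold. Runx2 stays beyond 2-fold in every row, with its lowest value at 1.11, and Runx1 falls below 0 in 1 row, with the spike-ins as the scale.

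Plasmacytoid dendritic cells express Runx2, and markers of these cells were higher in the same library. Of 13 such markers, all were detected, 10 passed 2-fold on the high side and 0 on the low side (median 2.50). Of all detected genes, 4.7% passed it on the high side and 4.94% on the low side. The summed scaled signal of the markers was 149 in the Nr4a-deficient-labelled library, against 105 in the wild-type library. Tcf4, which encodes the E protein E2-2 that specifies these cells, was 7.57-fold higher, Irf8, a factor of dendritic cells, 3.19-fold and Cox6a2 114-fold. The defining surface gene Siglech lay at 0.10 with 136839 units in the Nr4a-deficient-labelled library, against 147869 in the wild-type library, and Pacsin1 at 0.17. Siglech and Pacsin1 make up most of both sums, so the sums say little of the other markers. Siglech also read brighter than Cd3e, which had 109161 units in the Nr4a-deficient-labelled library, against 111548 in the wild-type library. No defining marker of the list was at background on both arrays. The list was chosen with earlier results of these data known, and its part in the Runx2 difference was not tested.

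Markers of other cell types differed as well, and their counts stand beside shares of 4.7% higher and 4.94% lower over all detected genes. Of 13 B cell markers detected, 5 passed 2-fold on the high side and 0 on the low side (median 0.95, summed scaled signal 27.03 in the Nr4a-deficient-labelled library, against 12.3 in the wild-type library), while Pax5 and Blk were at background on both arrays. The higher ones were Fcrla (7.67-fold), Spib (5.67-fold, also in the plasmacytoid dendritic cell list), Pou2af1 (2.73-fold), Blnk (2.33-fold) and Ebf1 (2.25-fold). Of 12 CD8 T and NK cell markers detected, 3 were higher and 1 lower, the median was 0.25, and the summed signal was 18.3 in the Nr4a-deficient-labelled library, against 13.2 in the wild-type library, with Ncr1 and Klre1 at background on both. Higher were Klrd1 and Klrk1, which encode lectin-like receptors of NK cells (log2 bounds of 3.71 and 3.32), and the granule gene Nkg7 (2.14-fold), and Ctsw was 2.90-fold lower. Of 17 myeloid and dendritic cell markers, 4 were higher and 5 lower (median -0.022, sums 99.9 in the Nr4a-deficient-labelled library, against 87.1 in the wild-type library). Higher were Itgax (6.27-fold), Clec9a (5.63-fold), H2-Ab1 (4.10-fold) and Lyz2 (2.04-fold). Lower were C1qc (3.03-fold), C1qa (2.92-fold), C1qb (2.74-fold), Cd14 (2.57-fold) and Adgre1 (2.45-fold), so the median hides differences in both directions. Erythroid and platelet markers had 5 of 6 detected members lower (median -1.73, sums 7.56 in the Nr4a-deficient-labelled library, against 27.4 in the wild-type library). Thymocyte markers had 1 of 7 detected members higher and 1 lower (median 0.42, sums 7.96 in the Nr4a-deficient-labelled library, against 8.83 in the wild-type library). A joint list of stromal, endothelial, epithelial and bone-forming cell markers had 3 of 9 detected members higher and 1 lower (median 0.32, sums 1.93 in the Nr4a-deficient-labelled library, against 1.15 in the wild-type library). Higher were Cdh5 of endothelial cells, Cdh1 of epithelial cells and Bglap of bone-forming cells (log2 bounds of 3.02, 2.23 and 2.92). Alpl was 2.23-fold lower, and Col1a1 and Col1a2 lay at 0.27 and -0.53. Pdgfra, Pdgfrb and Sp7, the osteoblast factor downstream of Runx2, were at background on both arrays. The part of these cells in the differences of the Runx genes was not tested.

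**Figure D4:**
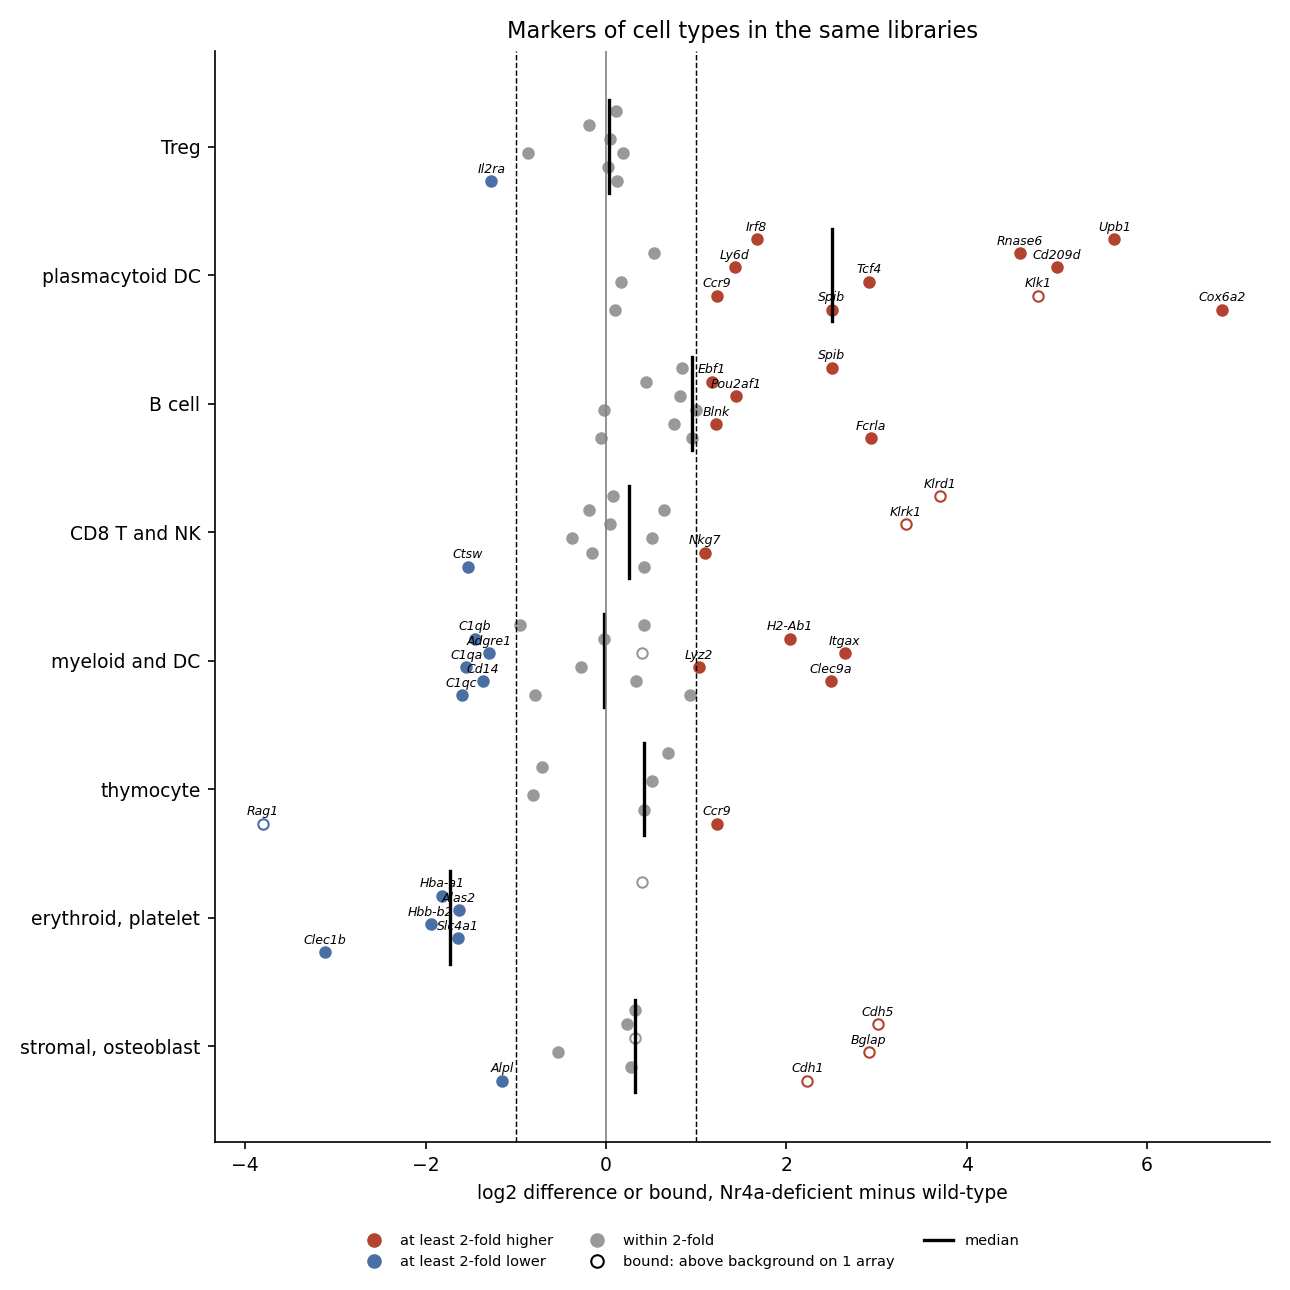
Log2 difference or bound (Nr4a-deficient minus wild-type by label) of each detected marker of 8 cell types, red at least 2-fold higher, blue at least 2-fold lower, hollow where the gene was above background on 1 array, with black bars at the medians. The plasmacytoid dendritic cell markers reach a median of 2.50 and the Treg markers 0.032.

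Cofactors of the Runx proteins passed 2-fold about as often as all detected genes. Runx proteins repress through the Groucho corepressors (Tle genes), histone deacetylases and the ETO family, and activate through the acetyltransferases Ep300, Crebbp and Kat6a. Of 26 genes listed, 25 were detected, 1 was at least 2-fold higher, 1 lower and 23 within 2-fold, together 2 past 2-fold, where 9.63% of all detected genes passed it in either direction. The median was 0.013. With normexp background correction 1 gene of the list passed 2-fold, in place of 2. The exception upward was Cbfa2t3, the ETO-family corepressor ETO2 (MTG16), which is also prominent in plasmacytoid dendritic cells. It gave 1830 units in the Nr4a-deficient-labelled library, against 251 in the wild-type library, which is 8.47-fold higher. Of its other probes, 1 was at background in wild-type (61.2 units in the Nr4a-deficient-labelled library, against 65.2 in the wild-type library) and 1 at background on both arrays, so this fold rests on 1 probe. In the same library the plasmacytoid dendritic cell markers, chosen with earlier results known, had the median of 2.50 given above. The part of these cells in the Cbfa2t3 difference was not tested.

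Zfp521, a zinc finger protein that antagonises Runx2 in bone cells, was above background in the wild-type library only, with 39.9 units in the Nr4a-deficient-labelled library, against 130 in the wild-type library, and was at least 2.19-fold lower. Its other probe was at background on both arrays. The Groucho genes lay within 2-fold, at 0.25 for Tle1, -0.67 for Tle2, 0.27 for Tle3 and -0.011 for Tle4. On the spike-in scale Tle2 lay at -1.04, past 2-fold, and the count of the list was 3. Crebbp lay at 0.28. Runx1t1, the ETO gene of the leukaemia fusion with RUNX1, stayed at background on both arrays.

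Transcription factors that bind beside Runx had 21 of 22 genes detected, with 3 at least 2-fold higher and 1 lower, and a median of 0.38. Over all detected genes, 4.7% were higher, 4.94% lower and the median was 0. With normexp background correction 1 gene of the list passed 2-fold, in place of 4. Nfatc1, a calcium-regulated factor that meets Runx1 on cytokine promoters, had 13724 units in the Nr4a-deficient-labelled library, against 6033 in the wild-type library, and was 2.64-fold higher. Its second probe lay at 0.69, inside 2-fold. Cebpa, of myeloid cells, was 2.21-fold and Lmo2, of blood progenitors, 2.06-fold higher, both under 2-fold on the spike-in scale (0.78 and 0.67). Tal1, of the erythroid Runx1 complex, was at least 2.23-fold lower, beside erythroid markers with a median of -1.73. A link between Tal1 and those markers was not tested. Of the T cell partners, Foxp3 lay at 0.020, Gata3 at 0.38 and Tbx21 at 0.92, each within 2-fold. The Foxp3 value comes from the dim probe described above, close to the floor of both arrays, so it says little of the transcript.

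Genes that Runx proteins are known to activate in T cells showed no common direction. Of 26 listed, 24 were detected, 3 were at least 2-fold higher, 2 lower and 19 within 2-fold, with a median of 0.072, where 9.63% of all detected genes passed 2-fold in either direction. Gzmb (granzyme B), a Runx3 target of cytotoxic cells, had 47849 units in the Nr4a-deficient-labelled library, against 3041 in the wild-type library, 18.3-fold higher. The list shares 11 of its genes with the marker lists. Cxcr6, a chemokine receptor of tissue T cells, was 3.74-fold higher, and its second probe lay at 1.86. Itga1, the alpha 1 integrin of tissue-resident cells, was 2.71-fold higher at the probe that represents it, and its other probe, with 326 units in the Nr4a-deficient-labelled library, against 21.6 in the wild-type library, was at background in wild-type.

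The lower members were Il2ra and Rag1. Il2ra (CD25), which the Runx1 and Foxp3 pair is known to promote in Treg cells, had 16618 units in the Nr4a-deficient-labelled library, against 46649 in the wild-type library, 2.42-fold lower. Rag1, which cuts DNA to assemble antigen receptors, was at background in the library labelled Nr4a-deficient and had 830 units in the wild-type library, at least 14.0-fold lower. Its other probe was at background on both arrays (12.6 units in the Nr4a-deficient-labelled library, against 76.1 in the wild-type library). Rag1 was also the lower member of the thymocyte markers. The CD8 genes that Runx3 activates lay at 0.51 (Cd8a) and 0.42 (Cd8b1). Among the genes named for the Runx1 and Foxp3 pair, Ctla4 lay at 0.11 and Tnfrsf18 (GITR) at -0.86.

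Genes that Runx proteins are known to hold down in T cells had 11 of 12 detected, with 3 at least 2-fold higher and 1 lower (all detected genes 4.7% and 4.94%) and a median of 0.23. The higher ones were the cytokine genes Il4 (3973 units in the Nr4a-deficient-labelled library, against 449 in the wild-type library, 10.3-fold) and Il13 (at least 43.8-fold), both silenced by Runx3 in Th1 cells, and the follicular homing receptor Cxcr5 (2.41-fold, or 0.90 on the spike-in log2 scale). Il2, which Runx1 and Foxp3 repress in Treg cells, was 2.01-fold lower, with 92.9 units in the Nr4a-deficient-labelled library, against 217 in the wild-type library. With the 75th percentile of probes above background on both arrays as the scale it came inside 2-fold, and the count of the list was 3 in place of 4. The lineage genes held down by Runx3 in CD8 cells lay within 2-fold, at 0.038 for Zbtb7b and 0.12 for Cd4, and the migration genes Klf2 and S1pr1 lay at 0.054 and 0.26. No relation of these genes to the Runx values was tested.

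Bone targets of Runx2 were mostly dim. Of 11 genes, 6 were detected and 5 were at background on both arrays, among them Sp7 and Ibsp. In the detected genes 2 were at least 2-fold higher and 1 lower (all detected genes 4.7% and 4.94%), and 1 of these 3 was above background on both arrays. Spp1 (osteopontin, also made by immune cells) was at least 8.25-fold higher, with 525 units in the Nr4a-deficient-labelled library, against 14.8 in the wild-type library. Bglap (osteocalcin) was at least 7.55-fold higher at 1 probe and at background at the other. Bglap and Bglap2 are near-identical neighbours, so a probe may not tell them apart. Alpl (alkaline phosphatase) was 2.23-fold lower, and the collagen genes Col1a1 and Col1a2 lay at 0.27 and -0.53.

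**Figure D5:**
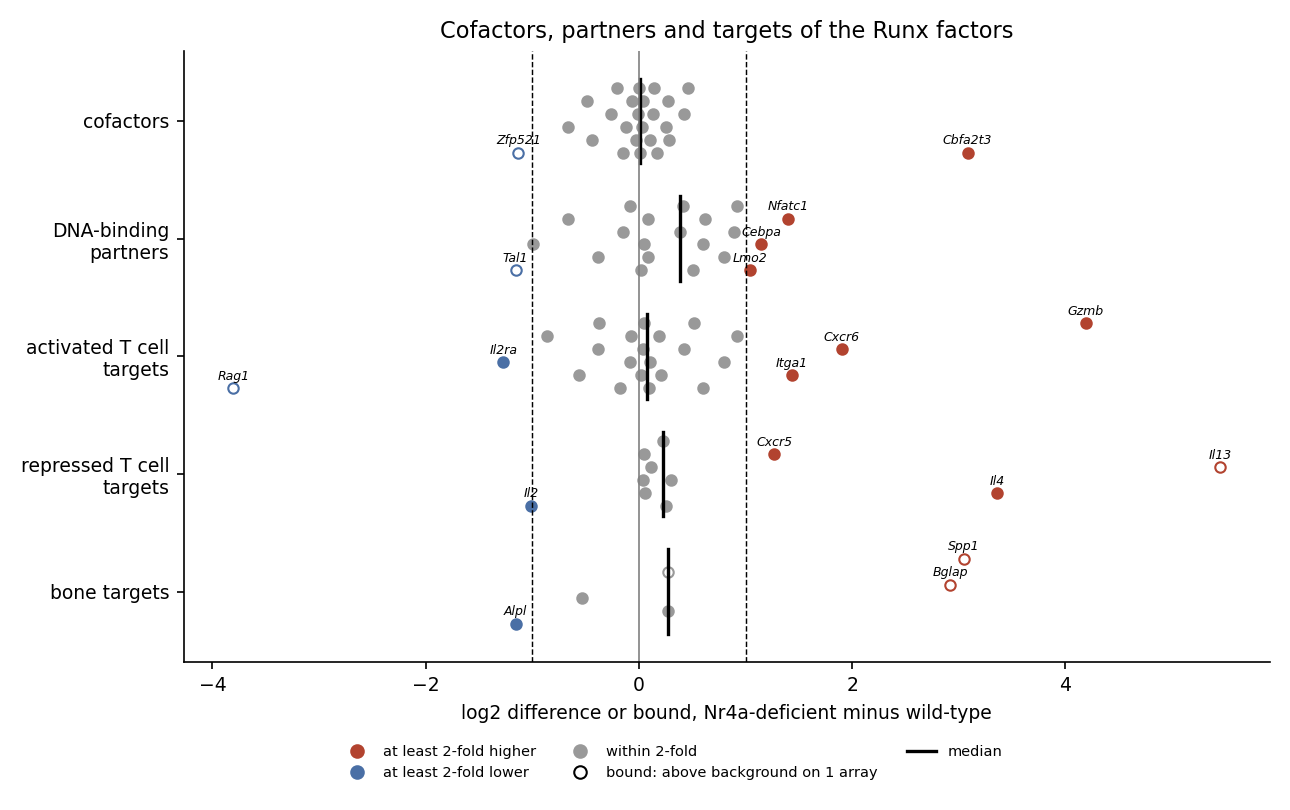
Log2 difference or bound (Nr4a-deficient minus wild-type by label) of each detected gene in 5 lists of Runx-related genes, red at least 2-fold higher, blue at least 2-fold lower, hollow where the gene was above background on 1 array, with black bars at the medians. The cofactor list clusters at 0.013, with Cbfa2t3 alone beyond 2-fold on the high side.

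The promoters of the family were read because the upstream promoters of Runx genes are known to hold Runx motifs. RefSeq promoter windows on GRCm38.p6 (250 bases before to 50 after a start) were listed for 6 starts of the 4 genes. The most upstream listed start of each of Runx1, Runx2 and Runx3 shared an unbroken run of 18 bases, found by comparing these windows and shown in capitals below with 6 bases on each side. It holds the Runx motif ACCACA in 2 copies. Counted from the listed start, the run lay after it in Runx1 (positions 27 to 44) and Runx2 (22 to 39). In Runx3 it lay before the start (-136 to -119).
Runx1 (chr16:92826025-92826054, minus strand): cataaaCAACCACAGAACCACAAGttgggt
Runx2 (chr17:44814583-44814612, minus strand): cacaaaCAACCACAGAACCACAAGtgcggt
Runx3 (chr4:135120503-135120532, plus strand): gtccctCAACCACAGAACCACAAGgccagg
The run was found in 4 of 32851 listed promoters, read on both strands. The remaining one belongs to Gm16225, a gene listed next to Runx3 on the opposite strand, whose window overlaps that of Runx3. ACCACA, read on both strands, occurs in 16.8% of all promoters and at least 2 copies in 1.81%. It was absent from the windows of Cbfb and of the downstream starts of Runx1 and Runx3. AAAGGTCA, the NBRE to which Nr4a receptors bind as monomers, was in none of the 6 windows and in 1.51% of all promoters. These matches describe letters in short windows. The Runx genes that share the run differed between the libraries by 1.55 (Runx2), 0.29 (Runx1) and -0.27 (Runx3).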

How the data were processed

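Members and gene lists were chosen with earlier results of these data known. Per the file headers, the deposited intensity values came from Agilent Feature Extraction 10.7.3.1, with spatial and multiplicative detrending switched on. The value table the authors deposited holds intensity too, within 1% of the scanner values for 99.7% of probes on each array.

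From the scanner files, spots with outlier flags were left out (173 on the Nr4a-deficient-labelled array, 209 on the wild-type array, none of them a member's). Spots of a probe were averaged as log2 of the processed signal, and each array was divided by its 75th percentile over gene probes. A probe counted as above background where more than 50% of its spots carried the software's well-above-background call, and otherwise as at background. For a probe above background on 1 array, the other array's value was set to the higher of its own value and the lowest value above background, and such folds are worded "at least". No spot was saturated. The number of arrays limits the precision. Python 3.11.15, R 4.3.3 and limma 3.58.1 were used, and the gene table was tested on simulated data. Probes were named from RefSeq's GRCm38.p6 table by accession (27184), symbol (3566) or synonym (562), and 8036 kept the file's name.

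Named were every probe of the members, genes of the Runx-related lists at least 2-fold apart with up to 4 textbook members a list, some of the marker genes at least 2-fold apart, and the genes nearest each member. Genes named outside this rule were chosen after their values were seen.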

Additional observations from a re-analysis of the deposited data

How the results depend on the processing

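No paired analysis was possible because each group has 1 library, and leaving out a replicate was not possible for the same reason. Each gene had 11 alternatives. Values that moved by more than the spot-to-spot SD were as follows. With the spike-ins as the scale, Runx1 lay at -0.082, Runx2 at 1.18, Runx3 at -0.64 and Cbfb at -0.37. With the median of gene probes, Runx1 lay at 0.19, Runx3 at -0.37 and Cbfb at -0.096. With probes of a gene averaged, Runx1 lay at 0.24, Runx2 at 1.31 and Runx3 at -0.15. The Runx2 average took in the wild-type value of A_65_P18181, which was at background, as read and without the floor. Runx1 lay at 0.34 with the percentile of probes above background on both arrays, and Runx2 at 1.11 with normexp background correction. Runx2 stayed past 2-fold and Runx3 below 0 under all 11. The deposited values, the filter on both arrays and no filter on dim probes left Runx2 at 1.55, since they read the same probe and signal. The dimmer Runx3 probe, A_51_P494992, lay at 0.012 with the percentile of probes above background on both arrays. Cofactor genes past 2-fold numbered 1 with normexp and 1 with both arrays above background, in place of 2, DNA-binding partners numbered 1 with normexp in place of 4, and bone targets 1 with both arrays above background in place of 3. All genes at least 2-fold higher numbered 871 and lower 915, against 560 and 1508 with the spike-ins, 432 and 499 with both arrays above background, and 2059 and 1785 without a filter on dim probes. The share of calls that were higher was 48.8%, and 27.1% with the spike-ins. The wild-type Runx2 signal of 108 units stood near that array's floor of 73.8. The causes of these shifts were not tested.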

Other observations

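The genes of the Runx-related lists whose log2 difference lay nearest to each member, among 74 genes above background on both arrays, were Crebbp (0.28) and Bcl6 (0.30) for Runx1 at 0.29. For Runx2 at 1.55 they were Itga1 (1.44) and Nfatc1 (1.40), for Runx3 at -0.27 the ubiquitin ligase gene Wwp1 (-0.26) and the kinase gene Hipk2 (-0.21), and for Cbfb at 0.00055 they were Stub1 (0.0023) and Tle4 (-0.011). Likeness here is a single difference between 2 arrays, so it says nothing of shared control. Gata1, an erythroid partner of Runx1 that was chosen after its value was seen, lay at -0.996, just inside 2-fold, beside erythroid markers with a median of -1.73. On the spike-in scale Gata1 lay at -1.37, past 2-fold. A link between Gata1 and those markers was not tested.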
